A study of Mus musculus with 4 samples.

Results

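The 10 genes described here are markers of the primitive streak and of the mesoderm that leaves it: T, Eomes, Mixl1, Evx1, Snai1, Mesp1, Tbx6, Hand1, Tal1 and Kdr. They were taken by gene symbol from a table of 32592 genes, and all 10 had a row of their own. Poly(A) RNA had been sequenced from the CCE line of mouse embryonic stem cells (strain 129/Sv), cultured without feeders on gelatin, in serum medium with leukemia inhibitory factor. The libraries labelled Eif4a2 knockdown (2 samples) came from cells infected with shRNAs against eIF4A2 (sheIF4A2-2 and sheIF4A2-3), and the control-labelled libraries (2 samples) from cells infected with control shRNAs (shLuc and shEV). Which shRNA each sample received is not given in the sources used here. All cells, controls included, had 3 days of selection in 1 μg/mL puromycin and were collected on day 4.5. Whether the samples within a group were separate cultures is not stated, so each p-value reflects only the scatter among these 4 samples, which could be technical.

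The primitive streak is the region of the gastrulating embryo where epiblast cells leave the epithelium and become mesoderm and endoderm. Nodal, Wnt and BMP signals induce it. The T-box factors T and Eomes and the homeobox factor Mixl1 appear early in the response, Snai1 drives the loss of epithelial adhesion, and Mesp1, Tbx6, Hand1, Tal1 and Kdr mark the heart, somite, extraembryonic and blood-forming mesoderm that follows. Embryonic stem cells kept in leukemia inhibitory factor carry little RNA of most of these genes.

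Values are the authors' normalized counts, gene counts scaled to an effective library size, from which the whole reads were worked back. Depth was 10646302 reads for knockdown 1 and 12009899 for knockdown 2, against 13681765 for control 1 and 4604200 for control 2. Control 2 was the shallowest library, where 3 reads were worth 0.679 normalized counts; elsewhere they were worth 0.221 to 0.266. Eif4a2, the gene the shRNAs target, encodes a helicase of translation initiation. It stood at 752.5 and 814.0 normalized counts in the knockdown-labelled libraries, against 530.6 and 379.0 in the control-labelled ones (log2 change 0.80, SE 0.15, limma adjusted p = 0.014). The target thus went against its label. Directions below therefore compare libraries by their labels, and a loss of Eif4a2 RNA was not measured. Whether the labels of the groups were exchanged was not tested, and if they were, every direction given here would turn round. Bulk RNA cannot tell apart more cells of a type from more RNA per cell.

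Tal1, Snai1 and Hand1 rose 2.88- to 3.72-fold in the knockdown-labelled libraries. Eomes was not called, and the other streak factors T, Mixl1 and Evx1 were too low to test. Of the 10 genes, 6 had enough reads to be tested, and of these 3 rose, 0 fell and 3 did not pass. With all 4 libraries, none was lower at an unadjusted p under 0.05 in limma, and edgeR and DESeq2 also had 0 that fell. Across all 14890 genes tested with limma, 10.5% rose and 12.4% fell (23.0% in all), which is 1567 and 1851 genes. That balance depended on the scaling: 1883 rose and 1329 fell with upper-quartile scaling, and 2152 rose and 996 fell when scaled by library size alone, while 3 members rose and 0 fell under each scaling. Among the 6 tested, 4 lay higher and 1 lower in both knockdown-labelled libraries than in both labelled control, and 66.8% of all genes tested did not overlap in one or the other direction. T, Mixl1, Evx1 and Mesp1 did not reach the minimum of reads and are given as counts. Summed over the 10 genes, the normalized counts were 44.8 and 50.1 in the knockdown-labelled libraries, against 25.7 and 25.3 in the control-labelled ones. Eomes, Tal1, Snai1 and Hand1 made up 89.5% of that sum in the knockdown-labelled libraries and 78.9% in the control-labelled ones.

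**Figure D1:**
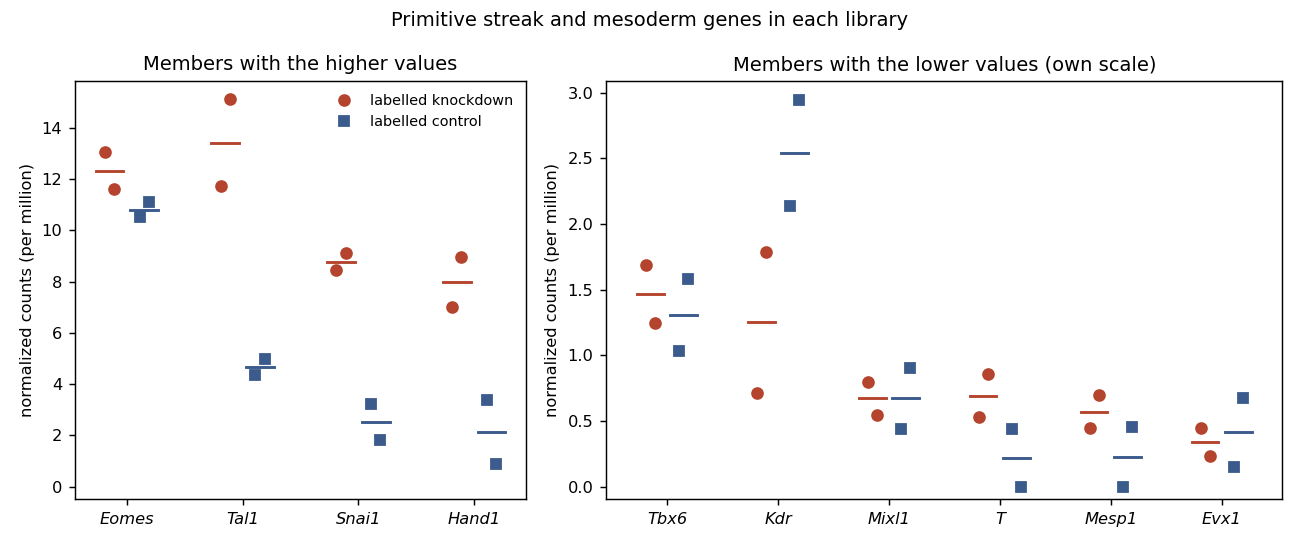
Normalized counts (linear scale, panels with their own scale) of the 10 genes in each library; points are libraries and short lines are group means of 2. Tal1, Snai1 and Hand1 lie higher in both knockdown-labelled libraries (circles) than in both labelled control (squares), and the genes on the right stay under 3 normalized counts in all 4 libraries.

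Promoter sequences from RefSeq (GRCm38.p6) were matched by symbol for 8 of the 10 genes. The 250 bases before the start are shown for Snai1 and Tal1, which rose, and for the streak T-box genes T and Eomes. T was too low to test, and Eomes was tested but not called. Each window was searched on both strands for 5 motifs. CTTTGA is the core of the element through which Wnt signals act. CACCTG is the E-box form that the Snai1 protein binds, and CAGATG an E-box form bound by complexes of the Tal1 protein. AGATAA is the core bound by blood-forming zinc finger factors that partner with Tal1. TCACACCT is a site bound by T-box factors. Capitals mark the matches.
Snai1, chr2:167537945-167538194, plus strand: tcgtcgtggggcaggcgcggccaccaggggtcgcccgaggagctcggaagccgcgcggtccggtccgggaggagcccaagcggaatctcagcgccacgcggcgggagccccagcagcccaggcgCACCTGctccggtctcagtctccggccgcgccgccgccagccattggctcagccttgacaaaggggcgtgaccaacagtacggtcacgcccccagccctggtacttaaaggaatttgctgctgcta
Tal1, chr4:115056176-115056425, plus strand: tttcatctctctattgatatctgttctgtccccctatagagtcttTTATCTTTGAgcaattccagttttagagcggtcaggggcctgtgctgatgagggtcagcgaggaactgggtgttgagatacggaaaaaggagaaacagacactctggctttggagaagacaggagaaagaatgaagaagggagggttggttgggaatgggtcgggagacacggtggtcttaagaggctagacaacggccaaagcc
T, chr17:8434173-8434422, plus strand: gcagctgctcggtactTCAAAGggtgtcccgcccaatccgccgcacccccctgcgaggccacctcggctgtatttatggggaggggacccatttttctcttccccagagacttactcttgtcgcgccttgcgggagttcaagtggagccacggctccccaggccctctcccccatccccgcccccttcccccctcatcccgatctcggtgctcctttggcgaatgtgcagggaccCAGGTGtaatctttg
Eomes, chr9:118477939-118478188, plus strand: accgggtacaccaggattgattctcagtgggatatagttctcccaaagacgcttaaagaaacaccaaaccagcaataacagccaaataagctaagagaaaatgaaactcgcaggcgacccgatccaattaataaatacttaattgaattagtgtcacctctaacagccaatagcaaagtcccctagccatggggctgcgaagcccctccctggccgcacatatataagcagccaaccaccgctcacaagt
Snai1 held a CACCTG at 126 to 121 bases before its start, and 17.2% of 32851 windows of this length held one. Tal1 held an AGATAA on the minus strand at 205 to 200 bases (9.99% of windows) and, sharing 2 bases with it, a CTTTGA at 201 to 196 bases (13.8%). T held a CTTTGA at 234 to 229 bases and a CACCTG at 15 to 10 bases, both on the minus strand. Eomes held none of these letters in its window. Snai1's window had 27 CpG, more than 91.4% of the windows, against 6 for Tal1, 14 for T and 8 for Eomes, and the median was 6. Another Tal1 start in RefSeq had 16 CpG in its window and none of the motifs. These matches describe the letters and say nothing of binding in these cells.

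Tal1 (chr4:115056426-115071755, plus strand; all gene positions are GRCm38) encodes a basic helix-loop-helix (bHLH) factor required for blood formation and for endothelium. Its RNA stood at 11.7 and 15.1 normalized counts in the knockdown-labelled libraries (132 and 194 reads), against 4.34 and 4.98 in the control-labelled ones (59 and 22 reads). Both knockdown-labelled libraries lay well above both controls, and the controls lay close together. The means were 13.4 ± 2.39 and 4.66 ± 0.45 (SD, n = 2 each), a ratio of 2.88, and the log2 change was 1.34 (SE 0.20, 95% interval 0.88 to 1.80, limma adjusted p = 0.00715). Log2 changes are taken on log2(normalized counts + 1), which understates the change of genes at this level.

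Snai1 (chr2:167538195-167542814, plus strand) encodes a zinc finger repressor that switches off E-cadherin as cells leave the epithelium. It measured 8.43 and 9.11 normalized counts in the knockdown-labelled libraries (95 and 117 reads), against 3.24 and 1.81 in the control-labelled ones (44 and 8 reads). The groups did not overlap, and the controls differed from each other by 0.59 on the log2 scale, against 1.15 between the lowest knockdown and the highest control library. The ratio of the means was 3.48 (8.77 ± 0.48 against 2.52 ± 1.01, SD, n = 2 each), with a log2 change of 1.50 (SE 0.25, 95% interval 0.92 to 2.08, limma adjusted p = 0.00952).

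Hand1 (chr11:57828705-57832818, minus strand) encodes a bHLH factor of the heart, of extraembryonic mesoderm and of trophoblast giant cells. Its level was 7.01 and 8.95 normalized counts in the knockdown-labelled libraries (79 and 115 reads), against 3.39 and 0.905 in the control-labelled ones (46 and 4 reads). The groups did not overlap, but the controls differed by 1.20 on the log2 scale, more than the gap of 0.87 between the groups. The minimum level for testing was met in both knockdown-labelled libraries but in only 1 control, so the controls alone would not have passed the filter. The ratio of the means was 3.72 (7.98 ± 1.37 against 2.15 ± 1.75, SD, n = 2 each), with a log2 change of 1.63 (SE 0.38, 95% interval 0.73 to 2.53, limma adjusted p = 0.0262).

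Each of these changes was larger than that of at least 99.0% of all genes tested, and the 3 intervals overlap, so the genes cannot be ranked by their response. Run on the recovered reads, edgeR's quasi-likelihood test, which called 11.5% of all genes as higher and 13.8% as lower, also called these 3 members (log2 changes 1.56 for Tal1, 1.65 for Snai1 and 1.61 for Hand1; adjusted p from 0.00415 to 0.0223). In the authors' deposited table their log2 fold changes were 1.56, 1.65 and 1.66 with adjusted p-values of 2.33e-07, 2.62e-06 and 0.000263. At the same threshold 5.91% of all genes in that table were higher and 5.61% lower. Those shares are over 32592 genes, of which 20934 had any read, whereas the limma and edgeR shares are over 14890. With all genes split into 5 equal bins by the GC content of the transcript, Snai1 and Hand1 lie in the highest bin, where 19.0% of genes rose, and Tal1 in the next, where 14.2% rose. Of 5 such bins by level, all 3 genes lie in the second lowest, where 11.7% rose. The promoter windows of Tal1 and Snai1 shared none of the motifs searched. The part of GC content in the changes was not tested.

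**Figure D2:**
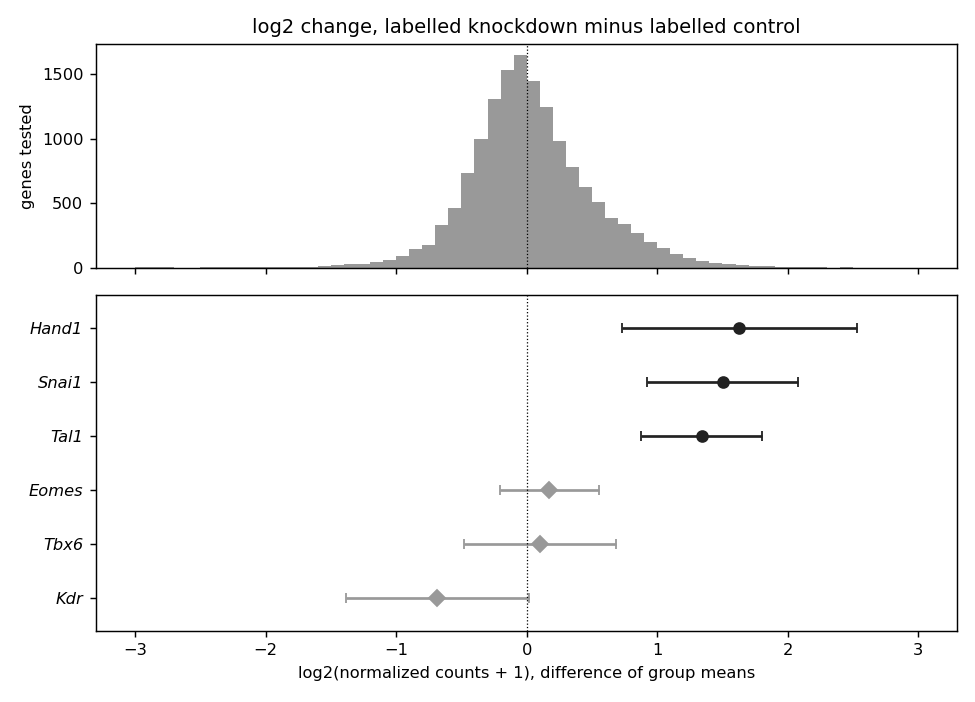
Top, histogram of the log2 change of all 14890 genes tested (values beyond 3 drawn at 3); bottom, log2 change of the 6 members tested with its 95% interval (limma). Black circles are members with an adjusted p below 0.05, which are Hand1, Snai1 and Tal1 at 1.34 to 1.63; grey diamonds did not pass.

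With knockdown 2 left out, Tal1 and Hand1 kept their direction but lost the call, and fewer of all genes tested were called too. The log2 change was then 1.17 for Tal1, 1.47 for Hand1 and 1.45 for Snai1. With all libraries these were 1.34, 1.63 and 1.50. A fit without a library takes its spread from fewer samples. Without a knockdown-labelled library it comes from the controls alone, and without a control from the knockdown-labelled pair alone. Over all genes tested, the controls differed by a median of 0.198 on the log2 scale, against 0.095 for the knockdown-labelled pair. The part of this spread in the lost calls was not tested. The size of the Hand1 change depended on the control: it was 2.23 without control 1 and 1.03 without control 2, the library with 4 Hand1 reads. Snai1 went between 1.20 without control 2 and 1.80 without control 1. Tal1 moved least with the controls, at 1.26 without control 1 and 1.42 without control 2.

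**Figure D3:**
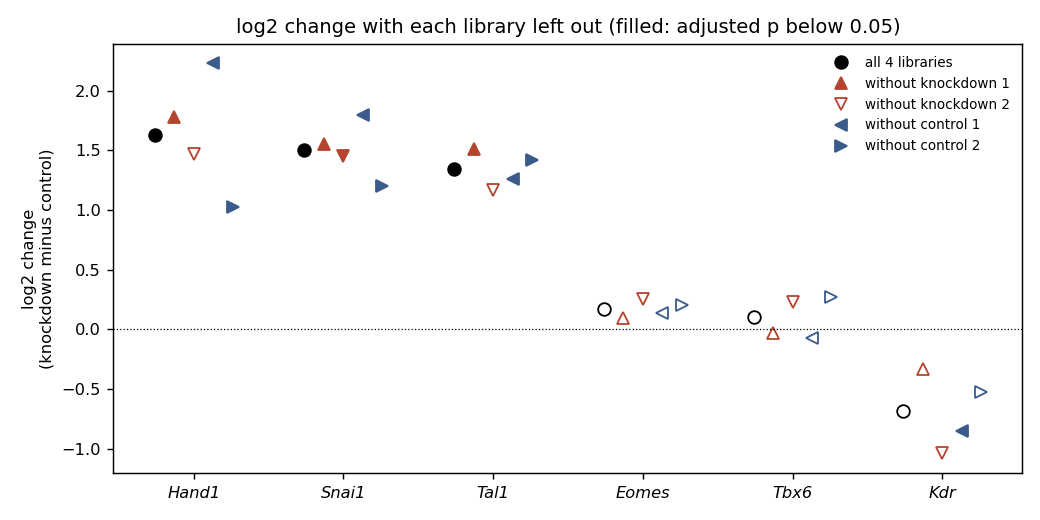
Log2 change (labelled knockdown minus labelled control, y axis) of the 6 members tested, with all 4 libraries and with each library left out; filled symbols have a limma adjusted p below 0.05. Hand1 spans 1.03 to 2.23, and Tal1 and Hand1 lose the call without knockdown 2.

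Eomes (chr9:118478212-118486132, plus strand), a T-box factor of the anterior streak, of definitive endoderm and of trophoblast, had the most reads of the streak factors. It reached 13.1 and 11.6 normalized counts in the knockdown-labelled libraries (147 and 149 reads), against 10.5 and 11.1 in the control-labelled ones (143 and 49 reads). Both knockdown-labelled libraries were above both controls, by a margin of 0.06 on the log2 scale, and 32.1% of all genes tested were ordered this way. The log2 change was 0.17 (SE 0.16, 95% interval -0.20 to 0.55, limma adjusted p = 0.466). A change of the size seen for Tal1, Snai1 or Hand1 lies outside that interval. Exons of Eomes share 118 bases with an antisense gene in the GRCm38 annotation, and the strand setting of the counting is not given in the sources used here.

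T (brachyury; chr17:8434423-8442496, plus strand), the T-box factor that defines the streak and the notochord, was close to the limit of detection. It had 6 and 11 reads in the knockdown-labelled libraries (0.533 and 0.857 normalized counts), against 6 and 0 reads in the control-labelled ones (0.442 and 0). The 0 in control 2 allows up to 0.679 normalized counts, so the groups cannot be told apart at this depth, although the listed values do not overlap. The ratio of the summed reads per effective library size was 2.12, with a 95% exact interval of 0.80 to 6.56 that covers counting error only.

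Mixl1 (chr1:180693043-180697034, minus strand), a paired-like homeobox factor of the streak, had 9 and 7 reads in the knockdown-labelled libraries and 6 and 4 in the control-labelled ones (ratio 1.20, 95% exact interval 0.51 to 2.95). Evx1 (chr6:52313498-52318378, plus strand), a homeobox factor of the posterior streak, had 5 and 3 reads in the knockdown-labelled libraries and 2 and 3 in the control-labelled ones (ratio 1.20, interval 0.34 to 4.64). The normalized counts of both genes overlapped between the groups, all under 1. Evx1 shares 73 exonic bases with its antisense gene Evx1os, which had 1 or 2 reads in each library.

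Mesp1 (chr7:79792241-79793788, minus strand), a bHLH factor of the earliest heart mesoderm, had 5 and 9 reads in the knockdown-labelled libraries, against 0 and 2 in the control-labelled ones. In normalized counts these were 0.444 and 0.701 against 0 and 0.453, so the groups overlapped. The ratio of the summed reads was 5.23, with a 95% exact interval of 1.20 to 47.4 for counting error only. When every gene with a read was tested, limma gave Mesp1 a log2 change of 0.38 (SE 0.20, adjusted p = 0.267), T 0.49 (SE 0.21, adjusted p = 0.169), Mixl1 0.01 and Evx1 -0.06. In the authors' deposited table neither Mesp1 (log2 fold change 2.19, adjusted p = 0.154) nor T (1.08, adjusted p = 0.492) passed.

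Tbx6 (chr7:126781483-126785560, plus strand), the T-box factor of the paraxial mesoderm that forms somites, was at 1.69 and 1.25 normalized counts in the knockdown-labelled libraries (19 and 16 reads), against 1.03 and 1.58 in the control-labelled ones (14 and 7 reads). The groups overlapped, and the log2 change was 0.10 (SE 0.25, 95% interval -0.48 to 0.68, limma adjusted p = 0.795).

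Kdr (chr5:75932827-75978458, minus strand), the receptor of vascular endothelial growth factor on blood- and vessel-forming mesoderm, was the member with the lowest log2 change. It had 0.710 and 1.79 normalized counts in the knockdown-labelled libraries (8 and 23 reads), against 2.13 and 2.94 in the control-labelled ones (29 and 13 reads). The minimum level for testing was met in both controls but in only 1 knockdown-labelled library. Both knockdown-labelled libraries lay below both controls, as did those of 34.6% of all genes tested, and they differed from each other by 0.71 on the log2 scale. The log2 change of -0.69 (SE 0.30, 95% interval -1.39 to 0.01) did not pass (limma adjusted p = 0.136). With 1 library left out, which leaves 1 sample in its group, the log2 change ran from -1.04 to -0.33. It was -0.85 without control 1.

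Levels were set side by side per exon length. In the knockdown-labelled libraries the order was Snai1 (5.20 and 5.62 normalized counts per kb of exon), Hand1 (3.51 and 4.48), Tal1 (2.68 and 3.45) and Eomes (3.14 and 2.79), with Tal1 and Eomes overlapping. In the control-labelled libraries the order was Eomes (2.53 and 2.67 per kb), Snai1 (2.00 and 1.12), Hand1 (1.70 and 0.453) and Tal1 (0.992 and 1.14), where Snai1 overlapped with Hand1, and Hand1 with Tal1. Hand1 in control 2 was also below both Tbx6 control values. Tbx6 came next in both groups, at 0.935 and 0.691 per kb in the knockdown-labelled libraries and 0.571 and 0.878 in the control-labelled ones. The other 5 genes had at most 0.550 per kb in any library, and most neighbours among them overlapped. For scale, the pluripotency factor Pou5f1 averaged 837.2 normalized counts per kb in the knockdown-labelled libraries and 977.3 in the control-labelled ones.

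**Figure D4:**
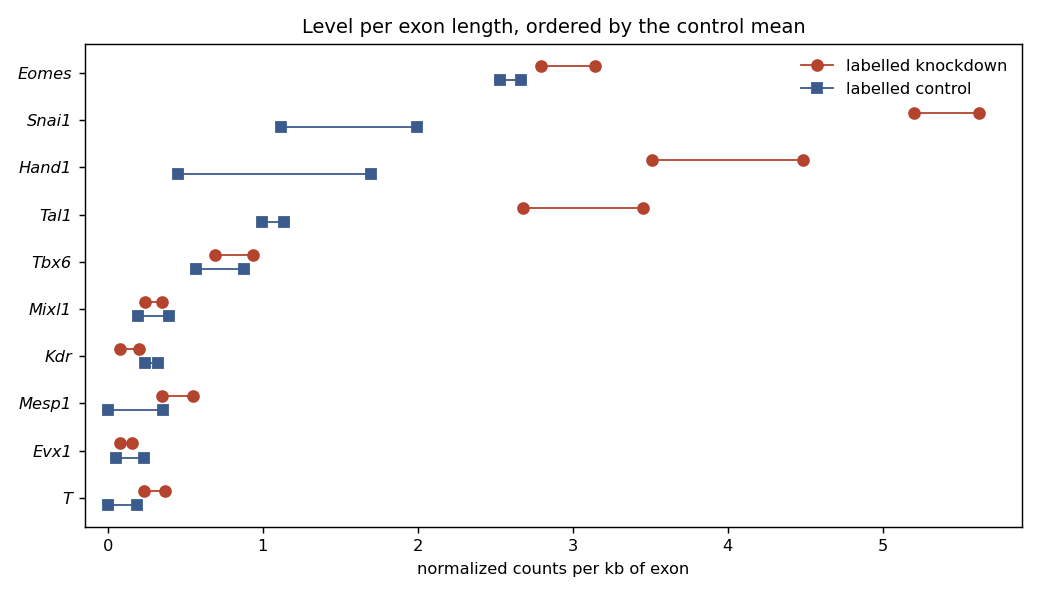
Normalized counts per kb of exon (x axis, linear) of the 10 genes, ordered from the top by the control mean; each line joins the 2 libraries of a group, circles labelled knockdown and squares labelled control. Snai1, Hand1 and Tal1 are at 2.68 or more in both knockdown-labelled libraries and at 2.00 or less in both labelled control, while the lower 5 genes reach at most 0.550.

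Other genes of the same programme were described by lists of 109 genes, of which 75 had enough reads. Of these 12 rose (16.0%), 8 fell (10.7%) and 55 did not pass, with a median log2 change of 0.18, against 10.5% and 12.4% and a median of -0.01 for all genes tested. Over all genes tested the median varied with level, from 0.24 in the lowest of the 5 bins to -0.13 in the highest. In the lowest, 12.6% rose and 1.98% fell, and in the highest 6.95% rose and 26.0% fell. By GC content the median was -0.14 in the lowest bin and 0.17 in the highest. The part of level and GC content in the list values was not tested. Over these lists and the marker lists together, 31 genes were called with all libraries. That count fell when a knockdown-labelled library was left out and grew when a control was. The count over all genes tested moved the same way.

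**Figure D5:**
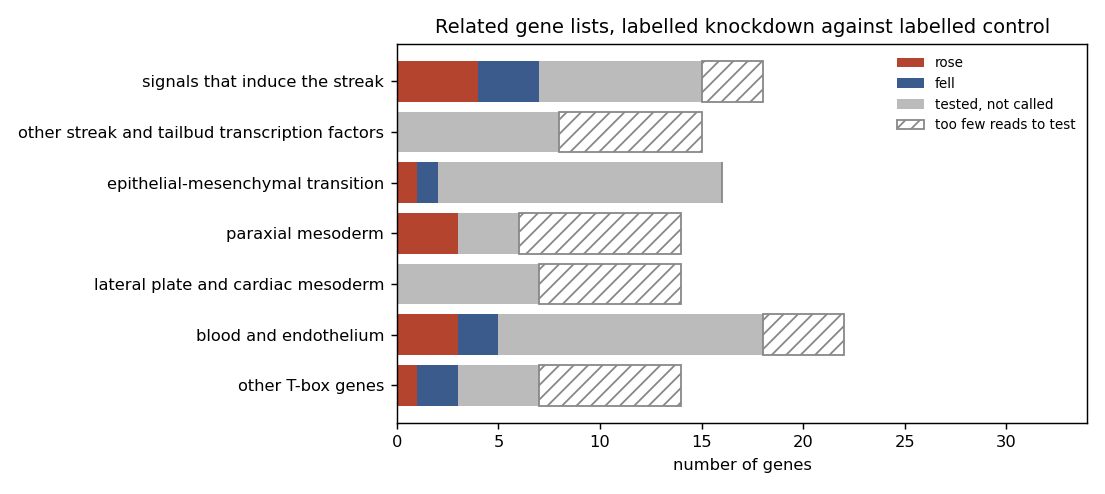
Number of genes (x axis) in 7 related lists that rose, fell, were tested without a call or had too few reads to test. Streak-inducing signals had 4 that rose and 3 that fell, and the other streak factors had no call.

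Among 15 tested signals that induce the streak or restrain it, 4 rose, 3 fell and 8 did not pass. Nodal, the ligand that specifies the streak, rose 1.57-fold (139.9 ± 14.2 in the knockdown-labelled libraries and 88.9 ± 14.7 in the control-labelled ones; here and in the other lists, normalized counts, SD, n = 2 each). Bmp4, whose protein induces mesoderm, fell to 29.0 ± 0.400, against 70.4 ± 5.12 in the controls (log2 change -1.25, limma adjusted p = 0.00256). Fgfr1, a fibroblast growth factor receptor needed for cells to leave the streak, rose 1.41-fold, and Pcsk6, a protease that processes Nodal, fell by 0.50 on the log2 scale. Of this list, 2 rose and 2 fell without knockdown 1, none rose and 2 fell without knockdown 2, and none rose with no variance trend.

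None of the 8 tested streak and tailbud transcription factors outside the 10 genes was called in limma, edgeR or DESeq2 with all 4 libraries and no replicate block (2 were higher and 0 lower at an unadjusted p under 0.05 in limma). Some were called when a control was left out, in fits that also called more of all genes tested. Those with the highest levels were Tcf7l1, a repressor of Wnt targets (104.4 ± 5.05 in the knockdown-labelled libraries and 103.3 ± 18.0 in the control-labelled ones), and Lef1, its activating relative (28.1 ± 4.77 and 27.8 ± 13.8). The other 7 of the 15, among them the organizer factors Gsc and Lhx1, had too few reads to test. Hoxb1 had no read in any library.

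Of 16 tested genes of the epithelial-mesenchymal transition, 1 rose and 1 fell. The number that rose was 3 under each of the other 4 scalings, 2 in edgeR and 1 in DESeq2. It grew when a control was left out, as did the number over all genes tested. Cdh1, the E-cadherin gene and a target that the Snai1 protein represses, rose 1.68-fold (541.2 ± 25.0 in the knockdown-labelled libraries and 321.5 ± 39.6 in the control-labelled ones, limma adjusted p = 0.00611). Fn1, the fibronectin gene, fell by 0.38 on the log2 scale (limma adjusted p = 0.031), a call that was lost with upper-quartile scaling, with library size alone, with no filter on low values, with no variance trend, and without knockdown 1 or knockdown 2. The other 14 did not pass, among them the paralogs Snai2 (log2 change 0.01) and Snai3 (0.91, SE 0.29, limma adjusted p = 0.0635) and the repressors Zeb1 (-0.18) and Zeb2 (-0.64).

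Of 14 genes of the paraxial mesoderm, 6 had enough reads to be tested. In limma 3 of these rose and 0 fell, while 10.5% of all genes tested rose and 12.4% fell. At an unadjusted p under 0.05 in limma, 5 were higher and 0 lower. In edgeR 4 rose and 0 fell, and in DESeq2 1 rose and 0 fell. Those that rose in limma were Dll1 (2.51-fold, 14.0 ± 1.59 in the knockdown-labelled libraries and 5.56 ± 2.75 in the control-labelled ones), Dll3 (2.17-fold) and Lfng (2.52-fold). They encode Notch ligands and a glycosyltransferase that modifies Notch. Without knockdown 1 none of them was called, and without knockdown 2 the list had 1 call. None of the 7 tested genes of lateral plate and heart mesoderm was called in limma, edgeR or DESeq2 with all libraries, nor had an unadjusted p under 0.05 in limma. That changed in the fits with a control left out, which also called more of all genes tested. Isl1, a factor of heart progenitors below the minimum of reads, had 2 and 1 reads in the knockdown-labelled libraries, against 8 and 5 in the control-labelled ones. It was called as lower by limma with no filter (log2 change -0.71, SE 0.18, adjusted p = 0.0473) and in the authors' deposited table (log2 fold change -2.48, adjusted p = 0.035). Gata4 averaged 14.0 ± 0.53 in the knockdown-labelled libraries and 11.7 ± 0.48 in the control-labelled ones, and Smarcd3 15.6 ± 2.19 and 21.4 ± 4.27.

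Of 18 tested genes of blood and endothelium, where Tal1 and Kdr act, 3 rose and 2 fell. Over all genes tested 10.5% rose and 12.4% fell. Ldb1, a bridging subunit of the TAL1 complex, rose 1.23-fold (225.7 ± 1.32 in the knockdown-labelled libraries and 183.4 ± 0.76 in the control-labelled ones), and Vegfa, the ligand of Kdr, rose 1.45-fold. Cd34, a surface marker of blood progenitors and endothelium, fell to 1.63 ± 0.21, against 5.74 ± 0.11 in the controls, and Flt4, a receptor of lymphatic endothelium, to 8.09 ± 0.10, against 13.6 ± 0.24. The other genes of TAL1 complexes, named after their values were seen, were Gata1, which rose at a low level (2.84 ± 0.38 and 1.19 ± 0.08), and Lmo2 (log2 change -0.27), Tcf3 (0.19) and Lyl1 (-0.20), which did not pass. Without knockdown 1, and also without knockdown 2, no gene of this list rose in limma, and 1 fell without knockdown 1 and none without knockdown 2. In DESeq2 1 rose and 1 fell.

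Among T-box genes other than T, Eomes and Tbx6, 7 of 14 were tested, and 1 rose and 2 fell. With no variance trend, and without knockdown 1 or knockdown 2, 1 fell. Tbx1, too low to be tested here, had 5 and 23 reads in the knockdown-labelled libraries, against 2 and 1 in the control-labelled ones. It was called as higher in the authors' deposited table (log2 fold change 2.67, adjusted p = 0.0204). Limma with no filter did not call Tbx1 (log2 change 0.76, SE 0.30, adjusted p = 0.14). Tbx4, known from limb and allantois development, rose 3.52-fold (23.9 ± 0.10 in the knockdown-labelled libraries and 6.79 ± 2.57 in the control-labelled ones). Tbx3, a T-box factor of naive embryonic stem cells, fell to 438.2 ± 3.86, against 698.4 ± 7.78 in the controls, and Mga, a partner of MAX with a T-box domain, to 281.9 ± 15.1, against 386.7 ± 3.50.

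Markers of embryonic stem cells were present in every library: Pou5f1 was at 1923 and 1841 normalized counts in the knockdown-labelled libraries, against 2089 and 2305 in the control-labelled ones. Of the 8 markers, 4 fell (Klf4, Zfp42, Esrrb and Sox2) and 0 rose in limma, edgeR or DESeq2 (0 higher at an unadjusted p under 0.05 in limma). The number that fell moved with a library left out. All 8 lie in the highest of the 5 bins by level, where 26.0% of genes fell and 6.95% rose. The summed normalized counts of these markers were 7603 to 7891 in the knockdown-labelled libraries, against 10265 to 10336 in the control-labelled ones. Of 9 trophectoderm markers, which matter for Eomes and Hand1, 1 rose (Krt7), and their sum was 40.6 to 41.6 in the knockdown-labelled libraries, against 29.2 to 33.6 in the control-labelled ones. Elf5, Tpbpa and Prl3d1 had no read in any library. Cdx2 had 29 and 35 reads in the knockdown-labelled libraries, against 19 and 11 in the control-labelled ones, and did not pass (log2 change 0.34, limma adjusted p = 0.37), nor did Gata3, Ascl2, Krt8 and Krt18, which all had reads. The Krt7 call was lost in DESeq2, with no filter, with no variance trend, and without knockdown 1 or knockdown 2. Of 7 fibroblast markers, which matter for Snai1, 4 were tested and 2 rose (Col1a1 and Pdgfrb), while 10.5% of all genes tested rose. Col1a2 (log2 change 0.65) and Thy1 (-0.02) did not pass, and Dcn had no read. The fibroblast sums were 40.0 to 40.4 in the knockdown-labelled libraries, against 19.9 to 24.3 in the control-labelled ones. Of the fibroblast list, 1 rose without knockdown 1 and none without knockdown 2. The part of trophectoderm or fibroblast RNA in the changes of Hand1 and Snai1 was not tested.

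Of 5 blood markers, which matter for Tal1, 2 were tested. Gata1 rose and Cd34 fell, and the globin genes Hbb-bt and Hba-a1 had no read. The Gata1 call was lost in DESeq2, with no filter, and without knockdown 1 or knockdown 2, and the Cd34 call without knockdown 2. These markers summed to 4.97 to 5.06 in the knockdown-labelled libraries, against 7.01 to 7.95 in the control-labelled ones. The 4 endothelial markers summed to 69.9 to 70.3 in the knockdown-labelled libraries, against 71.5 to 94.6 in the control-labelled ones. Most of each sum was Pecam1, at 54.4 and 53.6 in the knockdown-labelled libraries, against 74.8 and 54.5 in the control-labelled ones. Cdh5 was too low to test. None of the 3 tested was called in limma, edgeR or DESeq2 with all libraries, nor had an unadjusted p under 0.05 in limma. Some fell in the fit without control 2, which called more of all genes tested. Of 8 primitive endoderm markers only Lama1 was called, and it fell (sums 82.7 to 83.7 in the knockdown-labelled libraries, against 118 to 141 in the control-labelled ones). Of 5 definitive endoderm markers, Cxcr4 fell, though not in DESeq2 nor without knockdown 1 or knockdown 2, and Cer1 had no read (sums 24.8 to 27.8 in the knockdown-labelled libraries, against 22.4 to 28.5 in the control-labelled ones). Of 4 neuroectoderm markers, 3 were tested. Nes rose and Pax6 fell, but the rise was lost without knockdown 2 and the fall without knockdown 1 or knockdown 2. The 4 markers summed to 37.8 to 41.5 in the knockdown-labelled libraries, against 34.7 to 34.8 in the control-labelled ones.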

How the data were processed

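Per the labels' protocols, 1 μg of total RNA went into each poly(A) library, and a HiSeq machine gave single-end reads of 100 bp. The submitters' processing notes name Bowtie2 2.3.4.3, SAMtools 1.9, HTSeq 0.11.2, edgeR 3.26.8 and build mm9. The authors deposited a normalized signal per gene and library (CPM of an effective library size). Per the file headers, the deposited comparison holds log2 fold changes, a likelihood ratio score and p-values. Values were whole multiples of 1 read within 0.001 for 100% of entries, which gave the reads.

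Since the deposited values are normalized, limma 3.58.1 (R 4.3.3) with a variance trend was fitted to log2(signal + 1) of 14890 genes that passed filterByExpr of edgeR 4.0.16 on the recovered reads; that filter asks for a level worth 10 reads in the median library, in at least 2 libraries. Tests were two-sided, Benjamini-Hochberg adjusted over all genes tested, and called below 0.05; rose and fell mean called. With 2 samples a group, the smallest p of an exact permutation test is 0.333. The fit was tested on simulated data. edgeR's quasi-likelihood test on the recovered reads called 3764 genes, and DESeq2 1.42.0 was another alternative. Intervals of read ratios are exact and, like floors of 3 reads, cover counting error only, because the reads carry no molecular identifiers and so are not independent molecules.

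The genes and lists were chosen with earlier results of these data known. Named genes are all 10 members, Eif4a2 and, in each list, up to 4 called genes with the smallest p or, with none called, up to 2 with the highest level; others were named after their values were seen. Of the 5 neuroectoderm markers, 4 were analysed, because no row was matched to the symbol Sox1. GENCODE M21 (GRCm38) gave exon lengths, GC content and overlaps; coordinates are GRCm38, not the authors' mm9.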

Additional observations from a re-analysis of the deposited data

How the results depend on the processing

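Across the alternatives run, Snai1 rose in every one, with log2 changes from 1.10 to 1.80, and Tal1 (1.09 to 1.57) and Hand1 (1.03 to 2.23) kept their direction. Tal1 and Hand1 lost the call without knockdown 2, and Hand1 also without a variance trend in limma (adjusted p = 0.0664). The number of members called was 3 except 2 without the trend and 1 to 4 with a library left out. Tbx6 turned to -0.03 without knockdown 1 and -0.073 without control 1 (0.27 without control 2), with no call; DESeq2 gave it no adjusted p, and it was below a filter of an average log2 CPM of at least 1.

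All genes called numbered 3418, against 1932 without the trend, 2219 with DESeq2 and 653 to 7724 with a library left out. Listed genes called numbered 31, and 10 to 58 with a library left out. Eif4a2 kept its direction (0.56 to 1.04 with a library left out) but did not pass without the trend (0.80, adjusted p = 0.0581). Library size as the only scaling moved the median of all genes to 0.10; under each scaling tried the same 3 members were called.

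The labels number the replicates, but nothing says that equal numbers mark a shared batch, and same-numbered samples deviated with a correlation of 0.036. A replicate block called 4632 genes and 3 members, and it called 6 genes of the epithelial-mesenchymal transition and 1 other streak factor as higher, against 1 and 0 with no block. The cause of these shifts was not tested. Depth limits T, Mixl1, Evx1 and Mesp1, which had at most 11 reads in any library.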

Other observations

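The nearest protein-coding genes on either side of the 10 genes give a view of their surroundings. Of these 20 neighbours 16 were tested, 1 rose and 3 fell, with a median log2 change of -0.17. The 4 tested neighbours of the genes that rose did not pass in limma (adjusted p from 0.0744 to 0.294). They were Stil beside Tal1 (log2 change -0.18), Rnf114 beside Snai1 (0.16), and Sap30l (0.34) and Larp1 (-0.26) beside Hand1. Pdzk1ip1, on the other side of Tal1, had 1 and 1 reads in the knockdown-labelled libraries and 0 and 0 in the control-labelled ones. The neighbour that rose was Ypel3, which ends 969 bases from Tbx6 on the same strand (41.3 ± 0.66 normalized counts in the knockdown-labelled libraries and 24.3 ± 6.22 in the control-labelled ones), while Tbx6 itself gave no call. Mesp2, the paralog beside Mesp1, was at 9.06 and 9.34 in the knockdown-labelled libraries, against 6.99 and 4.75 in the control-labelled ones, and did not pass (log2 change 0.59, limma adjusted p = 0.0873).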
